A study of Mus musculus with 2 samples.

Results

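The cells described here are bone marrow cells rich in the transcripts of azurophil granule proteins, proposed as promyelocyte-like. They were chosen on their own counts. In each cell the unique molecular identifiers (UMIs, the tags that count single RNA molecules) of Elane, Mpo, Prtn3 and Ctsg were summed as E, those of the later granule genes Camp, Ngp and Ltf as C, and those of the monocyte genes Csf1r, Ccr2, F13a1, Ms4a6c and Ly86 as M. A member had an E of at least 20 that was larger than both its C and its M. The rule found 75 members among 1391 retained cells. The radiation control (RC) held 49 in its 662 cells, and severe aplastic anemia (SAA) 26 in 729. Members made up 7.40% of RC cells (95% exact binomial interval 5.53 to 9.67) and 3.57% of SAA cells (2.34 to 5.18). With at least 1500 genes and at most 10% mitochondrial UMIs per cell the shares were 11.7% (49 of 419) and 4.52% (26 of 575). With cells thinned to 5800 UMIs, shallower ones left out, they were 17.2% (44 of 256) and 3.50% (15 of 429). Both settings left out more RC than SAA cells, so the RC shares rose without more RC members.

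Both libraries came from F1 offspring of C57BL/6 and Balb/c parents. RC mice had received 300 rads of total body irradiation alone. SAA mice had received the same 300 rads and then 65000000 splenocytes of C57BL/6 origin, which attack the marrow of the F1 host, so that donor and host cells can both be present. Each library was a pool of 3 mice, sorted from bone marrow as live (7-AAD-negative) CD11b+ Ly6C+ Ly6G- cells. Age, sex and the day of harvest for sequencing are not given in the sources used here. There was 1 library per condition, so no test between conditions could be made. All intervals are 95% intervals that cover counting error alone.

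Azurophil granules are the earliest granules that neutrophil precursors form. Promyelocytes fill them with serine proteases and myeloperoxidase, and the secretory machinery that folds and packs these proteins is active at that stage. Later precursors, the myelocytes and metamyelocytes, stop making azurophil proteins and make specific granule proteins such as lactoferrin and the cathelicidin Camp. Elane encodes neutrophil elastase, Prtn3 proteinase 3 and Ctsg cathepsin G, all serine proteases, and Mpo encodes myeloperoxidase, which makes hypochlorous acid. Monocyte precursors also carry some of these transcripts for a time, so the 4 genes alone do not set neutrophil precursors apart.

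The 250 bases upstream of the start of each of the 4 genes that define the cells are shown because these genes chose every member. They are RefSeq sequences on GRCm38.p6, each read 5′ to 3′ on the strand of its gene. For Elane, Mpo and Prtn3 the starts used differ from the gene starts in the GENCODE vM21 annotation. The Prtn3 window lies inside the GENCODE gene. Capitals mark letters of binding motifs of factors known to act in granulocyte precursors, searched on both strands: GAGGAA for PU.1, AACNG for MYB, TGTGGT for RUNX and TTGCNNAA for C/EBP.
Elane, chr10:79886062-79886311, plus strand: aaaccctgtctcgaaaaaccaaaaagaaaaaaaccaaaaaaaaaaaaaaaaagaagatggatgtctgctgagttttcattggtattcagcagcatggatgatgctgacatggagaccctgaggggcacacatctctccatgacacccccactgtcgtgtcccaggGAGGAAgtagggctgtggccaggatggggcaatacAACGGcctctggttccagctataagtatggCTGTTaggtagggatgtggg
Mpo, chr11:87793534-87793783, plus strand: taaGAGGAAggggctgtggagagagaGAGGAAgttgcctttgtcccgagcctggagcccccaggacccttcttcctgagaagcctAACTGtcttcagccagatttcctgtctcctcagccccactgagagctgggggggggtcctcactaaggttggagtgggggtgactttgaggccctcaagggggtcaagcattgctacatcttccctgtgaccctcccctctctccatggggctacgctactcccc
Prtn3, chr10:79879417-79879666, plus strand: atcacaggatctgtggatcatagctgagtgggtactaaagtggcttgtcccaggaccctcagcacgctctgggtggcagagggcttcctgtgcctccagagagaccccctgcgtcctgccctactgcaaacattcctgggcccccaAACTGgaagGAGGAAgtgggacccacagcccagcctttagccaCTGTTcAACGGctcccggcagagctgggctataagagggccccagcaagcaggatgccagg
Ctsg, chr14:56102575-56102824, minus strand: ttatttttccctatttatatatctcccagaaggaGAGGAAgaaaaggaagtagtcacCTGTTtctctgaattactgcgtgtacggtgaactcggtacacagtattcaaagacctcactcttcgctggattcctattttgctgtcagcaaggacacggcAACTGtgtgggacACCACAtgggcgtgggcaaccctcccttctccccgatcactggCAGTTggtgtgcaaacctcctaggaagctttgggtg

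GAGGAA stood in all 4 windows, with 2 copies in Mpo, and in 28.3% of the 32817 windows of 300 bases in the table. AACNG also stood in all 4, with 2 copies in Elane, 1 in Mpo and 3 each in Prtn3 and Ctsg, and in 80.3% of all windows. TGTGGT stood in Ctsg alone among the 4 (16.8% of all windows), and TTGCNNAA in none of them (10.8% of all windows). In the Prtn3 window the motif AACTG lay 104 to 100 bases and GAGGAA 95 to 90 bases before the start. Elane and Prtn3 are neighbours on chromosome 10, with 3072 bases between them in GENCODE vM21, and Cfd, the gene of complement factor D, lay 2637 bases beyond Elane. These matches describe letters and show no binding.

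The marker genes divided the members into groups that match the label to different degrees. M per member was 0 to 3 or 11 and more, with no cell between. The former are called M-poor members here, 43 in RC and 14 in SAA, and the latter M-rich members, 6 in RC and 12 in SAA. This division was made after the values were seen. M-rich cells were 12.2% of RC members (4.63 to 24.8) and 46.2% of SAA members (26.6 to 66.6). M-poor cells were 6.50% of all retained RC cells (4.74 to 8.65) and 1.92% of SAA cells (1.05 to 3.20), whereas M-rich members were 0.906% (0.333 to 1.96) and 1.65% (0.853 to 2.86). The lower share of members in SAA was thus a lower share of M-poor members, and the M-rich intervals overlapped.

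**Figure D1:**
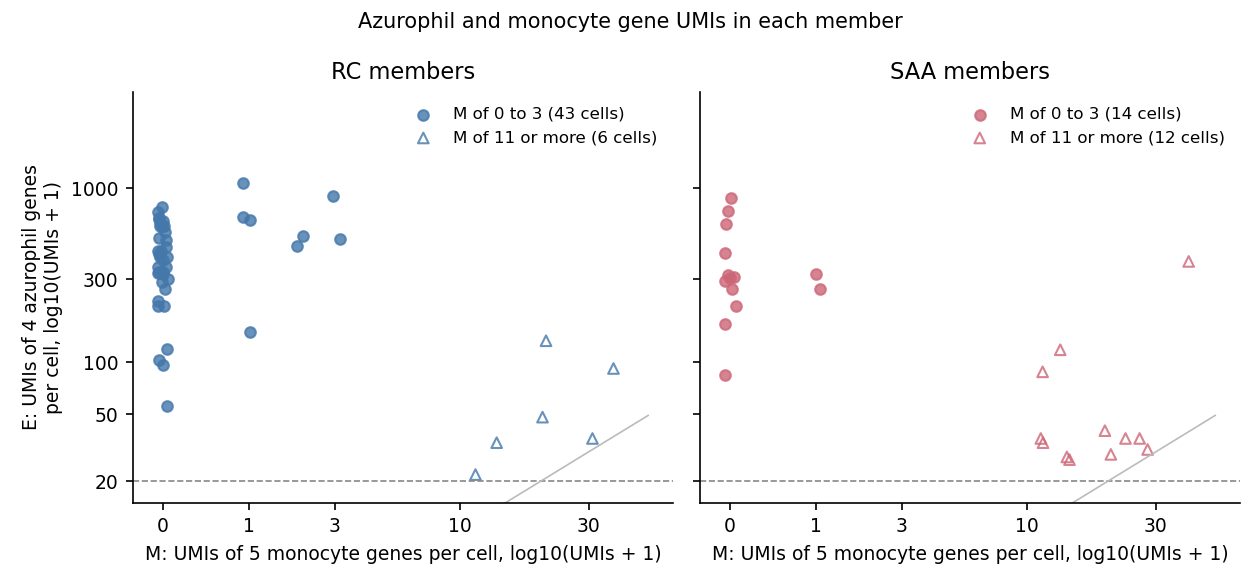
E against M in each of the 75 members, in UMIs per cell on log10(UMIs + 1) axes, RC on the left and SAA on the right; the dashed line is the E of 20 and the grey line is E equal to M. M-poor members (circles, M of 0 to 3) and M-rich members (triangles, M of 11 or more) stand apart, and M-rich members lie nearer both limits of the rule.

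In the M-poor members most neutrophil precursor markers were present. Ms4a3, a marker of granulocyte and monocyte progenitors, Fcnb, a ficolin of neutrophil precursors, Nkg7 and Plac8 had UMIs in each of the 43 RC and 14 SAA cells. Cebpe, a transcription factor of granule formation, had UMIs in 38 of 43 and 13 of 14, and Gfi1, a repressor that directs cells to neutrophils, in 34 of 43 and 14 of 14. Of monocyte genes outside M, Irf8, Ctss and Klf4 had no UMI in any M-poor member, whereas Mpeg1, a pore-forming protein of macrophages, had 18 UMIs in each library. The genes of M are low here by the split itself: F13a1 had UMIs in 7 and Csf1r in 3 of 43 RC cells, Ms4a6c in 1 of 43 and 2 of 14, and Ly86 and Ccr2 in none. The stem and progenitor marker Cd34 had no UMI in M-poor members. Kit, the stem cell factor receptor of immature cells, had UMIs in 21 of 43 RC and 4 of 14 SAA cells.

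In the M-rich members the data mostly went against the label. Irf8, a transcription factor of monocyte and dendritic fate, had UMIs in 6 of 6 RC and 12 of 12 SAA cells, and Ctss, a cathepsin of antigen-presenting cells, in 5 and 12. Gfi1 had UMIs in 0 of 6 and 1 of 12, Cebpe in 0 of 6 and 5 of 12, Nkg7 in 0 of 6 and 3 of 12. Mpo was at 0 in 3 of 6 and 6 of 12. Not all precursor markers were scarce. Plac8 had UMIs in all 12 SAA cells, and per 10000 UMIs each of these lay above all 6 RC cells. By the upper bound of the ratio to M-poor members, Fcnb was among the 20 lowest genes in SAA but not in RC. Ms4a3 and Plac8 were among them in neither library. Lyz2, the lysozyme of monocytes and macrophages, ranged from 34.2 to 101 UMIs per 10000 in RC and from 1.37 to 97.8 in SAA, against medians of 2.15 and 1.26 in M-poor members. The 20 monocyte genes outside the rule took 82.2, 152 and 182 UMIs per 10000 in RC and 48.9, 129 and 164 in SAA M-rich members, against 11.5 to 49.2 and 18.7 to 40.6 in M-poor members. M-rich members are therefore described by their M, with no other name.

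The members were deep cells. M-poor members had 4330, 11577 and 22915 UMIs (lowest, median and highest) in RC and 5362, 13595 and 31135 in SAA, and M-rich members 4843, 8344 and 11927 in RC and 9710, 15638 and 25174 in SAA. The libraries held 4066589 and 5592265 UMIs over 798 and 825 barcodes. Ly6c2, which encodes the sorted antigen Ly6C, had UMIs in every member. Itgam, the gene of CD11b, had UMIs in 36 of 43 and 10 of 14 M-poor members, and Ly6g had 1 UMI in all M-poor members together.

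Near the limit of the rule, the lowest E of a member was 22 in RC and 27 in SAA. Cells whose E exceeded C and M but fell short of 20 numbered 2 in RC, with E up to 11, and 6 in SAA, with E up to 19. Cells with an E of at least 20 that failed for having more C were more frequent, 53 in RC and 141 in SAA. E was thus also high in many cells assigned to the later granule genes, called C cells here (C at least E and above M), which numbered 267 in RC and 390 in SAA.

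E per M-poor cell was 56, 434 and 1065 UMIs in RC and 84, 306.5 and 872 in SAA (lowest, median, highest). Per 10000 UMIs of the cell, E was 129, 383 and 586 in RC and 153, 242 and 280 in SAA. The ranges overlapped, but 32 of 43 RC cells lay above the highest SAA cell and no SAA cell lay above the highest RC cell. In M-rich members E was 22, 42 and 133 UMIs in RC and 27, 36 and 380 in SAA, with both medians below the lowest M-poor cell. The SAA cell with 380 held 380 of the 883 E UMIs of the 12 M-rich SAA members.

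Elane was 41.6, 157 and 264 UMIs per 10000 in M-poor RC cells and 41.0, 81.5 and 136 in M-poor SAA cells. The lowest cells were alike, and 28 of 43 RC cells were above every SAA cell. Summed over cells, Elane was 16298 CPM (counts scaled to a class total of 1000000 UMIs) in RC and 9408 in SAA, an SAA/RC ratio of 0.577 (0.550 to 0.606). C cells carried less Elane and a smaller difference, 1738 and 1584 CPM over all C cells. Once 9 SAA cells with T or NK markers were left out, the ratio was 0.935 (0.894 to 0.978). The C-cell ratios of Prtn3, Mpo and Ctsg below leave out the same 9 cells.

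Prtn3 was 52.9, 107 and 195 per 10000 in M-poor RC cells and 41.0, 78.1 and 94.9 in SAA, and 29 of 43 RC cells exceeded every SAA cell. Its CPM was 10904 and 7634, a ratio of 0.700 (0.663 to 0.739). In C cells the direction was opposite, with a ratio of 1.68 (1.60 to 1.77). Thus Prtn3 was lower in SAA among M-poor members and higher in SAA among C cells. The difference between these ratios was not tested.

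Mpo was 23.1, 69.6 and 142 per 10000 in M-poor RC cells and 25.7, 38.2 and 78.1 in SAA, with a CPM ratio of 0.598 (0.558 to 0.640) against 1.02 (0.938 to 1.12) in C cells. Ctsg was 0, 22.5 and 54.0 against 4.81, 16.6 and 30.8, with a ratio of 0.639 (0.565 to 0.723) against 1.41 (1.12 to 1.78) in C cells. All 4 genes were therefore lower per UMI in SAA than in RC M-poor members, and the M-poor ranges overlapped for each.

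**Figure D2:**
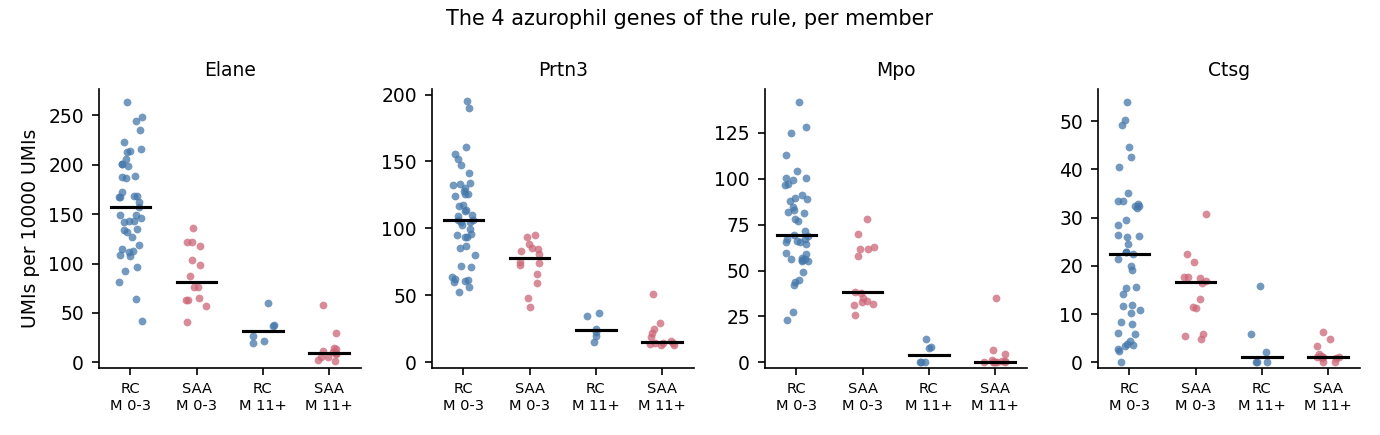
UMIs per 10000 UMIs of Elane, Prtn3, Mpo and Ctsg in each member, by library and by M (points are cells, bars are medians). For each gene the upper part of the RC M-poor cells lies above the highest SAA M-poor cell, and most M-rich cells sit near the bottom, except 1 SAA cell with an E of 151 per 10000.

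Over all 49 and 26 members the ratios were lower still, 0.385 for Elane (0.368 to 0.403), 0.504 for Prtn3 (0.480 to 0.530), 0.390 for Mpo (0.365 to 0.416) and 0.419 for Ctsg (0.373 to 0.471). M-rich members, with little E, made up more of the SAA members. Because the rule used these values, the ratios are descriptions.

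The mix of the 4 transcripts was alike in M-poor members of both libraries. Elane held 43.5% of the E UMIs in RC and 40.4% in SAA, Prtn3 29.1% and 32.8%, Mpo 21.1% and 20.3%, and Ctsg 6.23% and 6.41%. Elane led in 40 of 43 RC cells and in 9 of 14 SAA cells. In M-rich SAA members Prtn3 led in 10 of 12 cells and held 47.1% of E, whereas Mpo held 12.7%. C cells held less Ctsg, 1.71% in RC and 1.99% in SAA, and Elane led their sum in RC at 50.2% and Prtn3 in SAA at 48.4%.

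Of the other azurophil granule genes, Srgn was the most abundant in M-poor members. It encodes serglycin, the proteoglycan on which granule proteases are stored. It was 13.7, 40.9 and 77.0 UMIs per 10000 in RC and 4.81, 21.7 and 41.9 in SAA, and 20 of 43 RC cells exceeded every SAA cell. Its SAA/RC ratio was 0.571 (0.518 to 0.629) in M-poor members and 1.03 (0.913 to 1.17) in C cells. Prss57, a serine protease of the same granules, had a ratio of 0.694 (0.523 to 0.910), and Cd63, a membrane protein of azurophil granules, 0.700 (0.579 to 0.842).

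Man2b1, a lysosomal mannosidase, was the 1 gene of this list at least 2-fold lower among 12 with enough UMIs, beside 7.23% of all genes in M-poor members, with 103 UMIs in RC and 11 in SAA M-poor members (ratio 0.247, 0.119 to 0.460), whereas C cells had 0.910 (0.764 to 1.08). Ctsc encodes dipeptidyl peptidase I, the enzyme that activates granule serine proteases by trimming their ends. It was nearly absent from M-poor members, with 6 UMIs in 43 RC cells and 3 in 14 SAA cells. In M-rich members it had 12 UMIs in RC and 417 in SAA, from 10.7 to 34.2 per 10000 in each of the 12 SAA cells. The ratio of 32.0 over all members therefore came from the M-rich cells.

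Compared with C cells of the same library, members had more transcripts of the 4 rule genes, as the rule requires. M-poor members exceeded C cells 9.38-fold in RC and 5.94-fold in SAA for Elane, 9.0-fold and 3.83-fold for Prtn3, 17.4-fold and 10.4-fold for Mpo, and 39.4-fold and 18.3-fold for Ctsg. Camp, the cathelicidin, was 55140 CPM in RC C cells and 4531 in RC M-poor members, and 30621 and 5672 in SAA. Ltf, lactoferrin, was 4985 and 6438 CPM in C cells but had 2 and 6 UMIs in M-poor members. Thus members held some Camp but almost no Ltf.

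Outside the rule genes, 454 of 2852 genes with at least 100 UMIs (15.9%) were at least 2-fold higher in all RC members than in RC C cells, and 147 (5.15%) at least 2-fold lower. In SAA 553 of 3768 (14.7%) were higher and 298 (7.91%) lower. In both libraries together 279 of 2788 (10.0%) were higher and 103 (3.69%) lower. The median log2 ratio of all genes with at least 20 UMIs was 0.37 in RC and 0.28 in SAA, and the cause of this shift was not tested. With trimmed-mean (TMM) scaling the balance turned, to 139 higher and 357 lower in RC and 193 and 639 in SAA. Ratios below are read beside these medians.

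The 15 genes furthest above C cells in both libraries included genes of protein folding and of ribosome assembly. Calr, encoding the endoplasmic reticulum chaperone calreticulin, was 10.2-fold higher in RC (8.24 to 12.7) and 6.10-fold in SAA (5.15 to 7.21) in M-poor members. Hspa5, the chaperone BiP, was 5.28-fold and 5.40-fold higher, Pdia6, a disulfide isomerase, 7.76-fold and 5.20-fold, and Sdf2l1, a cofactor of BiP, 9.39-fold and 6.53-fold. These 4 genes were higher with TMM scaling too.

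Hspe1, a mitochondrial chaperonin, was 7.75-fold and 8.51-fold higher in M-poor members than in C cells. Fbl, the methyltransferase fibrillarin, was 7.87-fold and 4.50-fold higher, Nhp2, a subunit of box H/ACA ribonucleoproteins, 5.52-fold and 4.89-fold, and Npm3, a nucleolar chaperone, 5.70-fold and 4.49-fold. The cytokine Mif was 16.3-fold and 4.60-fold higher, and Srgn 17.9-fold and 9.73-fold. Rexo2, a mitochondrial RNase, was 5.88-fold and 5.90-fold higher, Ybx3, an RNA-binding protein, 5.28-fold and 3.94-fold, and the predicted gene Gm11505 15.2-fold and 15.3-fold.

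Crip1 and Lgals1 also stood among the 15 highest genes over all members, at 10.7-fold and 42.4-fold in RC and 5.55-fold and 5.01-fold in SAA. Crip1 did so through M-rich cells. It had 16 UMIs in the 43 M-poor RC cells and 0 in the 14 SAA cells, against 225 and 237 UMIs in the 6 and 12 M-rich cells. Lgals1, galectin 1, was 21.3-fold higher than C cells in M-poor RC members (11.4 to 43.1) but had a ratio of 0.533 (0.170 to 1.28) in SAA.

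**Figure D3:**
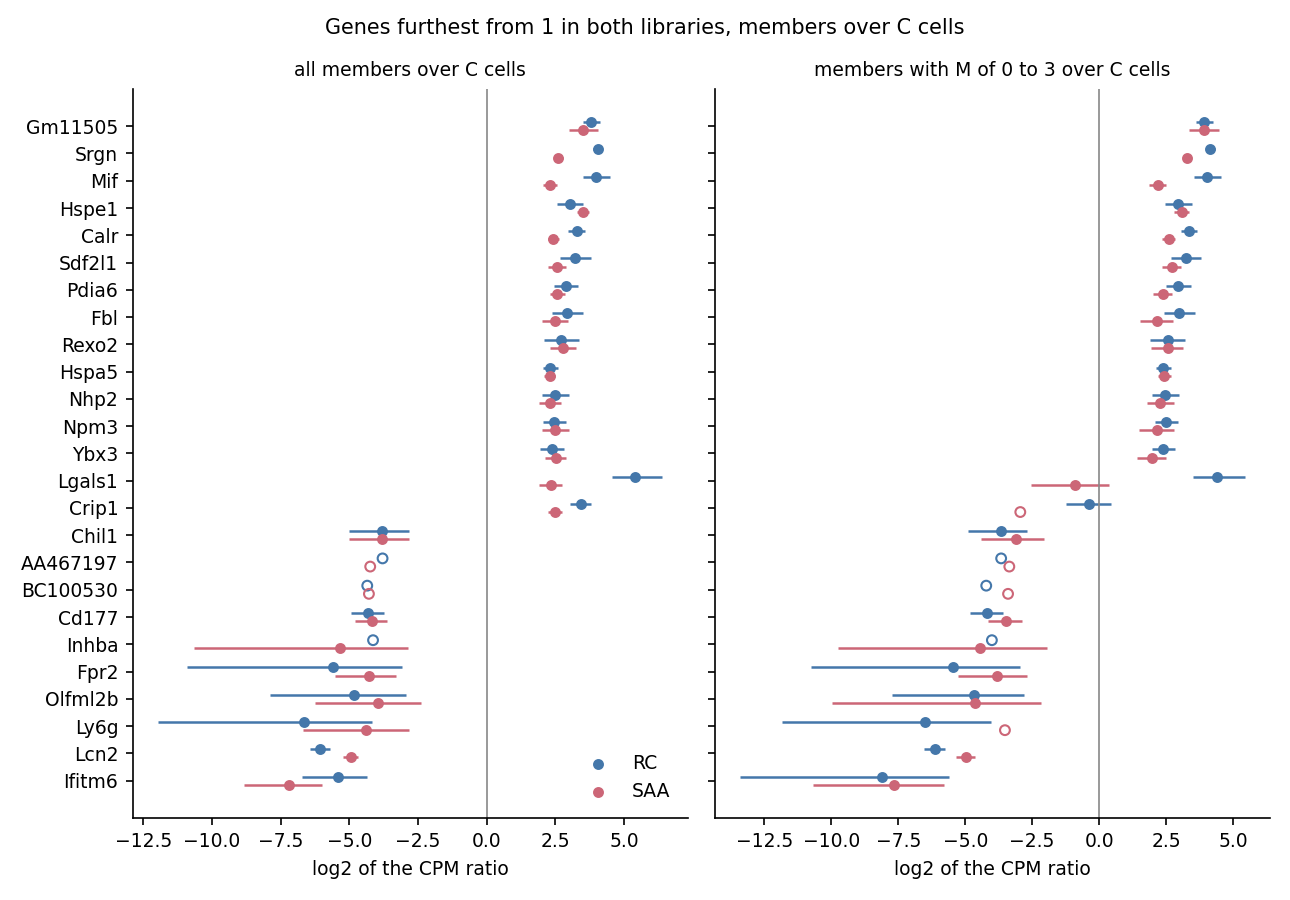
Log2 of the CPM ratio of members to C cells for the 15 highest and 10 lowest genes outside the rule, for all members (left) and M-poor members (right), with 95% counting intervals; open circles mark a bound at the floor of 3 UMIs. Crip1 and Lgals1 leave the high side in the right panel, except Lgals1 in RC.

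As groups, the lists gave the same picture. Of 42 genes of endoplasmic reticulum entry and folding, 31 were at least 2-fold higher in members than in C cells in both libraries and 0 lower, with median log2 ratios of 1.65 and 1.40. Of 23 ribosome biogenesis genes with enough UMIs, 21 were higher in both and 0 lower, with medians of 2.34 and 2.42. Among all 6990 genes with at least 20 UMIs in both comparisons, 11.4% were higher and 3.22% lower in both libraries. In RC alone it was 20.5% and 5.98%, and in SAA alone 20.2% and 8.93%. With TMM scaling the endoplasmic reticulum list had 25 higher in RC and 20 in SAA, against 34 and 33, and ribosome biogenesis 19 and 23, against 21 and 25. With that scaling 139 of 2852 genes with at least 100 UMIs were higher in RC and 193 of 3768 in SAA. The TMM share of all genes with at least 20 UMIs was not computed.

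Per cell, the endoplasmic reticulum list took 68.7, 122 and 176 UMIs per 10000 in M-poor RC members and 110, 146 and 288 in SAA, against medians of 34.8 and 45.0 in C cells. The ribosome biogenesis list took 10.0, 30.1 and 81.0 in RC and 23.7, 40.1 and 75.3 in SAA, against medians of 6.17 and 5.83 in C cells. M-rich members were like M-poor members on both, with medians of 92.5 and 139 for the former list and 27.0 and 36.7 for the latter.

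Of 14 progenitor genes of neutrophils outside the rule, 6 were higher in both libraries and 0 lower, beside 11.4% and 3.22% of all genes. Nkg7 was 5.33-fold and 4.97-fold higher in M-poor members than in C cells, Ms4a3 3.95-fold and 3.31-fold, Plac8 6.97-fold and 3.31-fold, and Gstm1, a glutathione transferase, 9.85-fold and 4.21-fold. Fcnb was at 1.04-fold and 1.08-fold, so members and C cells carried it alike. Myb, a transcription factor of immature blood cells, was 4.55-fold and 4.42-fold higher, and Gfi1 2.99-fold and 4.89-fold. Cebpe was at 0.744-fold (0.626 to 0.880) and 0.632-fold (0.496 to 0.797).

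Genes of later granules lay on the other side. Of 14 specific granule genes outside the rule 12 were at least 2-fold lower in members in both libraries and 0 higher. Over all genes 3.22% were lower and 11.4% higher in both. The list had median log2 ratios of -2.69 and -2.22. Lcn2, lipocalin 2, was 112 CPM in M-poor RC members against 7942 in C cells and 291 against 9169 in SAA. Chil3, a chitinase-like protein, was 283 against 4869 and 645 against 4280, and Cd177, a neutrophil surface protein, 46.5 against 841 and 103 against 1146. Pglyrp1, a peptidoglycan recognition protein, was nearer, at 0.446-fold and 0.389-fold.

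The 10 lowest genes held further neutrophil genes. Ifitm6 had 1 UMI in M-poor RC members and 2 in SAA, against 530 and 1789 CPM in C cells. The formyl peptide receptor Fpr2 had 1 and 6 UMIs, the activin subunit Inhba 0 and 1, Olfml2b 2 and 1, and the chitinase-like Chil1 8 and 7. AA467197 and BC100530 had 0 UMIs in every member, which against a floor of 3 UMIs over the members gave ratios to C cells of at most 0.0722 and 0.0491 in RC and of at most 0.0529 and 0.0512 in SAA. Ly6g, whose product the sort excluded, had 1 UMI in RC and 3 in SAA members.

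Over all genes with at least 20 UMIs, 11.4% were higher than in C cells in both libraries and 3.22% lower. Of 12 gelatinase granule and late neutrophil genes, 5 were lower in both libraries and 0 higher. Of the 6 NADPH oxidase genes, 1 was lower in both. That was Cybb, the catalytic subunit of the oxidase, at 0.179-fold and 0.273-fold of C cells in M-poor members. Of the 43 S phase genes 1 was higher in both libraries, and of 53 G2 and M phase genes 0 were higher or lower. The S phase list took a median of 41.4 and 45.4 UMIs per 10000 in M-poor members against 37.0 and 40.6 in C cells. The G2 and M list took 69.7 and 103 against 114 and 106.

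M-poor members differed among themselves in C, a sum that the rule also used. C ranged from 0 to 571 UMIs per cell in RC with a median of 16 and from 0 to 546 in SAA with a median of 138. The joint median, 25.9 UMIs per 10000, put 18 of 43 RC cells and 11 of 14 SAA cells in the high-C part. SAA M-poor members were thus mostly high in C. The split used a rule gene sum, so its own genes had to differ, and Camp was 34.8-fold higher in high-C cells in RC (28.4 to 43.2) and 17.3-fold in SAA (11.8 to 26.3).

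Other granule genes moved with C. Between high-C and low-C cells, Lcn2 was 12.9-fold higher in RC (5.56 to 36.9) and went from 1 to 64 UMIs in SAA. Chil3 was 4.74-fold and 17.7-fold higher, Lyz2 3.63-fold and 7.15-fold, and Cybb 2.47-fold and 4.27-fold. Fcnb was 1.49-fold (1.29 to 1.72) and 2.17-fold (1.51 to 3.21) higher. Only 3 SAA cells were low in C, so the SAA values rest on few cells.

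In the other direction, Ctsg was at 0.386-fold (0.334 to 0.444) in RC and 0.595-fold (0.475 to 0.748) in SAA, Mpo at 0.709-fold and 0.550-fold, and Myb at 0.562-fold and 0.376-fold. Elane was at 0.730-fold in RC (0.697 to 0.764) and 1.09-fold in SAA (0.990 to 1.21), so its direction was not shared. E per 10000 had a median of 265 in high-C and 439 in low-C RC cells, and 235 and 274 in SAA. The ribosome biogenesis median log2 was -0.50 and -0.91 and that of endoplasmic reticulum genes -0.42 and -0.58, beside -0.08 and -0.11 over all genes.

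Within the high-C cells alone, E per 10000 was 129, 265 and 586 in RC and 153, 235 and 264 in SAA (lowest, median, highest). Within low-C cells it was 224, 439 and 533 in RC and 232, 274 and 280 in SAA. In both parts the SAA median was lower and the ranges overlapped. The mix of C levels moved with the library, and its part in the lower E of SAA members was not tested.

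M-poor members split at the joint median of the G2 and M list, 74.4 UMIs per 10000, left 21 RC and 8 SAA cells high. In the high cells the endoplasmic reticulum list had medians of -0.42 in RC and -0.48 in SAA on the log2 scale, beside -0.03 and -0.02 over all genes. Split at 41.4 UMIs per 10000 of the S phase list, 22 RC and 7 SAA cells were high, and the endoplasmic reticulum medians were 0.07 and 0.09. The folding genes were thus lower in cells high in the G2 and M list and close to the all-gene medians, 0.03 and 0.01, in the split by the S phase list.

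SAA and RC members differed most in genes that interferons induce. Interferon-gamma, the product of activated T and NK cells, switches on GTPases that attack intracellular microbes, the antigen-processing proteasome and MHC molecules. The 20 interferon-inducible GTPase genes summed to 93.1 CPM in RC and 1649 CPM in SAA M-poor members. They took 0, 0.695 and 4.49 UMIs per 10000 in M-poor RC cells and 4.23, 16.6 and 41.7 in SAA cells, so 13 of 14 SAA cells lay above every RC cell. For the endoplasmic reticulum list it was 6 of 14, and for the ribosome biogenesis, S phase and G2 and M phase lists 0. Such counts of cells were made for a few genes and lists only, not over all genes. In M-rich members the GTPase sum was 59.8 and 2814 CPM, and each of the 12 SAA cells exceeded all 6 RC cells. C cells gave 35.7 CPM in RC and 1427 in SAA without the T and NK marker cells.

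**Figure D4:**
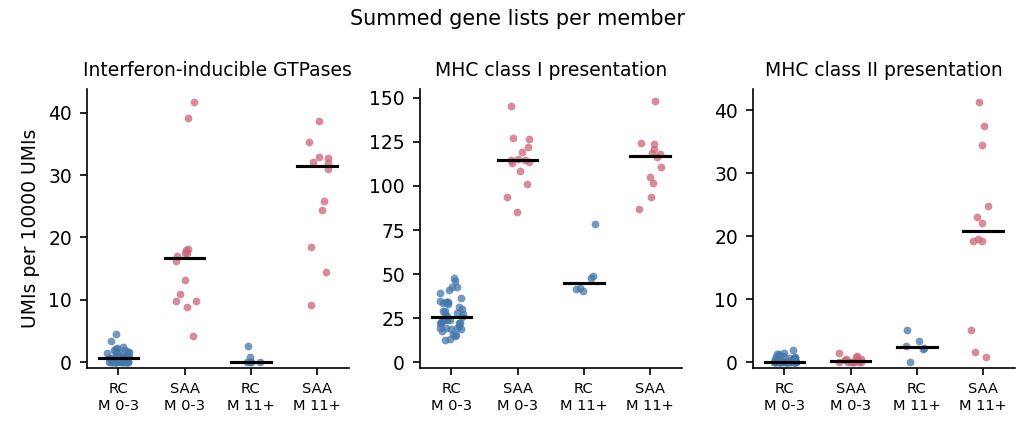
UMIs per 10000 UMIs of the interferon-inducible GTPase, MHC class I and MHC class II lists in each member, by library and by M (points are cells, bars are medians). MHC class I does not overlap between RC and SAA, GTPases overlap in 1 SAA cell, and MHC class II is highest in M-rich SAA cells.

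Among genes with at least 100 UMIs over members of both libraries, 82 of 1386 (5.92%) were at least 2-fold higher in SAA and 51 (3.68%) at least 2-fold lower. With at least 20 UMIs it was 462 (8.33%) and 372 (6.70%) of 5549, and in M-poor members alone 6.53% and 7.23% of 4576. In M-rich members it was 17.6% and 7.38% of 1857, and in C cells 7.96% and 3.84% of 8276. Of the GTPases, 13 reached 20 UMIs in members, and 10 of the 20 were at 0 in RC. A gene near 0 in RC reached this minimum only through SAA, so the 13 of 13 that were higher are given as a description.

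Gbp7, a guanylate-binding protein, had 6 UMIs in 5 of 43 RC M-poor cells and 89 in 14 of 14 SAA cells, a ratio of 34.3 (15.1 to 95.9). Igtp, an immunity-related GTPase, had 6 and 44 UMIs (16.9, 7.19 to 48.6), and Irgm1, a regulator of such GTPases, 6 and 40 (15.4, 6.49 to 44.4). Gbp2 had 1 UMI in RC and 38 in SAA, in 1 of 43 and 11 of 14 cells. Iigp1 had 0 UMIs in the 49 RC members and was found in 9 of 14 M-poor and 12 of 12 M-rich SAA cells.

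Gbp2 UMIs were found in 88.5% of SAA members as counted and in 68.0% (17 of 25, 46.5 to 85.0) when each cell was thinned to 5800 UMIs. In SAA cells with T or NK markers 30.8% of thinned cells (4 of 13) had one, and in SAA C cells 57.0%. In RC members the thinned share was 2.33% (1 of 43, 0.0589 to 12.3).

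Among the other genes of the interferon-gamma response, Psmb9, a catalytic subunit of the immunoproteasome, was 4.69-fold higher in SAA M-poor members (3.45 to 6.43), and Ly6e 2.19-fold (1.90 to 2.52). The whole list of 25 genes took 5.73, 12.4 and 26.3 UMIs per 10000 in M-poor RC cells and 30.9, 49.1 and 69.0 in SAA cells, with no overlap. In M-rich cells they took 21.3 to 35.1 in RC and 58.2 to 136 in SAA, again with no overlap.

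Genes best known from the response to type I interferons were also higher. The 38 genes took 0, 3.58 and 13.1 UMIs per 10000 in M-poor RC cells and 11.2, 23.1 and 38.5 in SAA cells, so 13 of 14 SAA cells lay above all RC cells. Bst2, tetherin, had 11 and 102 UMIs (21.4-fold, 11.5 to 44.3), Isg15, a ubiquitin-like modifier, 1 and 29, and Oasl2 0 and 38. Samhd1, a dNTP hydrolase, was 8.08-fold higher (4.39 to 15.9). Sp100, a nuclear body protein, was at 1.25-fold (0.822 to 1.89), so its interval held 1. Ifitm3, an antiviral membrane protein, went from 4 to 87 UMIs, but stayed lower than in C cells, at 390 against 2606 CPM in SAA.

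RC and SAA members did not overlap in the genes of MHC class I presentation, by which cells show their own peptides to CD8 T cells. The share of all genes or lists that separate members in this way was not computed. The 21 class I presentation genes took 12.8, 25.5 and 48.0 UMIs per 10000 in M-poor RC cells and 85.2, 115 and 146 in SAA. M-rich cells took 40.7 to 78.5 in RC and 87.0 to 148 in SAA. The sum was 2667 and 11142 CPM in M-poor members and 1928 and 10726 in C cells. In RC the M-poor members stood above C cells, and in SAA the levels were close.

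H2-K1, a heavy chain of class I, was 0, 3.40 and 11.8 UMIs per 10000 in M-poor RC cells and 13.2, 19.9 and 33.6 in SAA, without overlap, and 5.09-fold higher (4.31 to 6.04). H2-D1 was 4.30-fold (3.67 to 5.04) and B2m, the light chain, 4.10-fold (3.56 to 4.73) higher, beside 8.36, 4.96 and 4.91 in C cells for the 3 genes. H2-Q7, a nonclassical relative, went from 3 to 107 UMIs (82.4-fold, 27.4 to 406), and H2-T23 was 6.38-fold higher. Class I heavy chains are near-identical copies that differ between mouse strains, so the division of reads among them is uncertain.

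MHC class II genes, which present antigen to CD4 T cells, set M-rich from M-poor members. Their 10 genes summed to 34.9 CPM in RC and 40.3 in SAA M-poor members, but to 239 and 2092 CPM in M-rich members. Cd74, the invariant chain, had 0 UMIs in all 57 M-poor members and 176 UMIs in 11 of 12 M-rich SAA cells. Ly6a, the antigen Sca-1, had 2 UMIs in M-poor and 200 in M-rich SAA members. Over all members 6 of 6 genes with enough UMIs were higher in SAA, beside 8.33% of all genes. Cd74, H2-Aa and H2-Ab1 were at 0 in RC members and passed the minimum only through SAA, so that count is a description. AW112010, an interferon-induced transcript, was found in both, 71.7 CPM in M-poor and 764 in M-rich SAA members, against 9.70 and 39.8 in RC.

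**Figure D5:**
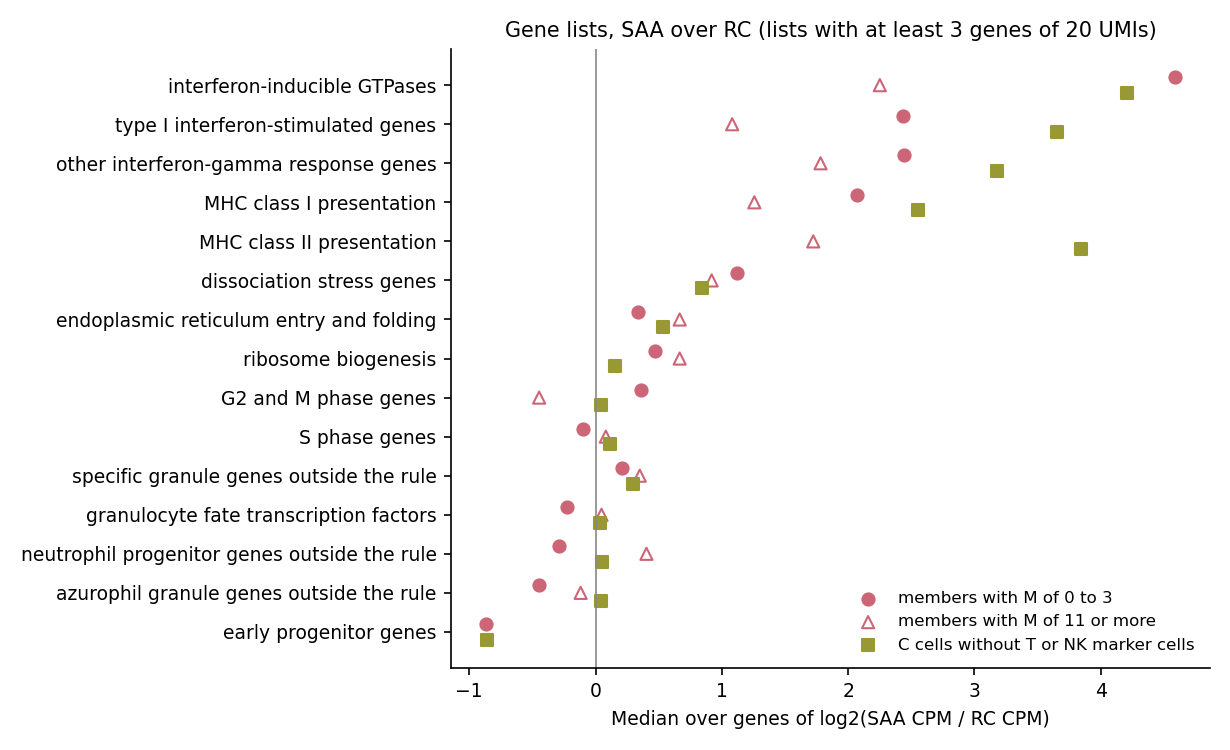
Median log2 of the SAA/RC CPM ratio over the genes of each list with at least 20 UMIs, in M-poor members, M-rich members and C cells without T or NK marker cells. The interferon and MHC class I lists lie to the right in all 3 groups, though genes near 0 in RC enter a median only through SAA, and the neutrophil progenitor and azurophil lists lie below 0 in M-poor members.

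Of the 15 genes furthest above 1 over all members, Lipg and Pim1 were also high in M-poor cells. Lipg, endothelial lipase, had 2 UMIs in 43 RC cells and 97 in 11 of 14 SAA cells (112-fold, 30.2 to 938), and C cells showed 1.57 and 357 CPM. Pim1, a survival kinase, went from 9 to 71 UMIs (18.2-fold, 9.08 to 41.5). Chaperones were also higher, Hspe1 3.75-fold (2.94 to 4.81), Hsp90aa1, a cytosolic chaperone, 3.22-fold (2.76 to 3.75), Hsp90b1 of the endoplasmic reticulum 2.3-fold (2.01 to 2.64) and Hspa5 1.87-fold (1.55 to 2.26).

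The endoplasmic reticulum list had 6 of 42 genes higher in SAA M-poor members and 0 lower, with a median log2 of 0.34 beside 0.04 over all genes. In C cells 5 of 42 were higher, with a median of 0.54. Over all genes in all C cells, 7.96% were higher, with a median of 0.11. Ribosome biogenesis had 2 of 21 higher and 1 lower, near the 6.53% and 7.23% of all genes, with a median of 0.47. The 17 genes of cell dissociation stress, which handling of tissue can raise, summed to 1352 and 3490 CPM in M-poor members and to 705 and 1224 in C cells. Most of the sum was Hsp90aa1, at 566 and 1823 CPM, and Hspa8, a constitutive chaperone, at 648 and 1411, whereas Ier2, an immediate early gene, was at 1.15-fold (0.578 to 2.21). Its part in the chaperone values was not tested.

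Csf2rb, the common beta chain of the receptors for GM-CSF, interleukin-3 and interleukin-5, was 5.0-fold higher in SAA M-poor members (2.80 to 9.29). Ifngr1, a chain of the interferon-gamma receptor, was lower, 204 UMIs in 40 of 43 RC cells and 42 in 13 of 14 SAA cells, a ratio of 0.476 (0.333 to 0.666). In C cells Ifngr1 had 0.722 (0.588 to 0.887). Of the 10 cytokine receptor and signalling genes with enough UMIs, these were the 1 higher and the 1 lower, shares near the 6.53% and 7.23% of all genes.

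Among the lowest genes, Vcam1, an adhesion molecule, had 119 UMIs in 35 of 43 RC M-poor cells and 10 in 7 of 14 SAA cells, 0.194-fold (0.0907 to 0.370). Per 10000 UMIs, 29 of 43 RC cells exceeded every SAA cell. Ramp1, a subunit of the receptor for the neuropeptide CGRP, was at 0.285-fold (0.172 to 0.450), with 0.388 in C cells. Gm11505 was at 0.300-fold (0.226 to 0.391), and 0.307 in C cells. 1700020L24Rik was at 0.402-fold (0.220 to 0.688).

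Gstm1 was at 0.402-fold (0.293 to 0.543) and Cst7, cystatin F, an inhibitor of cathepsins C and L, at 0.422-fold (0.280 to 0.618) in M-poor members, beside 0.966 and 0.787 in C cells. Xist, the RNA of the inactive X chromosome, was at 0.168-fold (0.101 to 0.265), and the sex of the pooled mice is not given. Cst3, cystatin C, was at 0.405-fold (0.306 to 0.529) in M-poor members, against 0.981 over all members, where M-rich cells carried much of it.

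Some genes of immature cells were lower in SAA M-poor members. Of the 3 early progenitor genes with enough UMIs 1 was at least 2-fold lower and 0 higher. Myb had 245 UMIs in RC and 58 in SAA M-poor members, 0.547-fold (0.403 to 0.731), and 0.561-fold in C cells. Kit had 35 and 5 UMIs, 0.330-fold (0.101 to 0.846), and 0.0562-fold (0.0176 to 0.138) in C cells. Of the 15 progenitor genes of neutrophils 3 were lower and 0 higher in M-poor members, with a median log2 of -0.29, beside 7.23% lower and 6.53% higher over all genes. Over all members, with more M-rich cells in SAA, it was 6 lower and -0.87. Fcnb was at 0.703-fold (0.605 to 0.814), Ms4a3 at 0.849-fold (0.732 to 0.983) and Nkg7 at 0.870-fold (0.741 to 1.02), while Plac8 was at 1.42-fold (1.31 to 1.54).

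The transcription factors of granulocyte fate named here had SAA/RC ratios between 0.846 and 1.27. In M-poor members Cebpe was at 1.06-fold (0.795 to 1.40), Gfi1 at 1.27-fold (0.859 to 1.86), Cebpb at 0.846-fold (0.603 to 1.17) and Spi1, which encodes PU.1, at 0.862-fold (0.623 to 1.18). Each of these intervals held 1. At these counts, differences within the bounds could not be told from none.

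Of the 10 specific granule genes outside the rule with enough UMIs, 4 were at least 2-fold higher in SAA M-poor members and 0 lower, with a median log2 of 0.21, beside 6.53% higher and 7.23% lower over all genes. Pglyrp1 was at 0.997-fold (0.873 to 1.14). Of the rule and list genes, Ngp, a cathelicidin-like protein, was 2.82-fold higher (2.56 to 3.12), Lcn2 2.59-fold (1.79 to 3.75), Chil3 2.28-fold (1.80 to 2.89), Cybb 2.01-fold (1.60 to 2.52) and Camp 1.25-fold (1.17 to 1.34). In C cells Camp was at 0.569-fold, with the T or NK marker cells left out, and Ngp at 1.0-fold. The higher share of high-C cells in SAA moves with these values, and its part in them was not tested.

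G2 and M phase genes were higher in SAA more often than lower. In M-poor members 7 of 47 were at least 2-fold higher and 1 lower, with a median log2 of 0.36 beside 0.04 over all genes, where 6.53% were higher and 7.23% lower, and Top2a, a topoisomerase of dividing cells, was 2.13-fold higher (1.71 to 2.65). The list took 24.8, 69.7 and 161 UMIs per 10000 in RC and 52.4, 103 and 153 in SAA, and the ranges overlapped, with 13 of 43 RC cells below every SAA cell. For S phase, none of 38 genes was at least 2-fold higher and 2 were lower. Pcna, the replication clamp, was at 0.904-fold (0.626 to 1.29).

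Markers of other cells were scarce among members. Summed over their lists, T and NK markers gave 3.54 CPM in RC and 2.42 in SAA members, with 13 of 14 genes at 0 in each, erythroid markers 1.77 and 2.42, and dendritic markers 12.4 and 9.69. B and plasma cell markers gave 21.2 and 7.26, basophil and mast cell markers 12.4 and 2.42, eosinophil markers 30.05 and 14.5, and megakaryocyte markers 1.77 and 0. The macrophage list gave 214 and 33.9 CPM, of which Vcam1 alone gave 210 and 26.6. Cells with at least 10 UMIs of T or NK markers numbered 0 in RC and 39 in SAA, none of them a member, and 1 UMI of Elane or more was found in 1 of those 39.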

How the data were processed

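Bone marrow cells were sequenced by 10x 5′ single-cell RNA-seq, 1 library per condition. Per the submitters' processing notes, the authors aligned reads to mm10 with Cell Ranger 6.0.1 and deposited UMI counts for 31053 genes per barcode. Barcodes with at least 1000 detected genes and at most 25% mitochondrial UMIs were retained. Counts were summed per class with Python 3.11.15, NumPy 2.4.6, pandas 2.3.3 and SciPy 1.17.1 and divided by the class total (CPM, with no length correction). CPM ratios carry exact conditional binomial intervals and shares Clopper-Pearson intervals, at the 95% level. TMM factors came from edgeR 4.0.16 in R 4.3.3. Doublets were called with scanpy 1.11.5 at an expected rate of 1% (3 in RC, 13 in SAA, 1 a member) and kept. 1 barcode occurred in both libraries and was no member. Shares of cells were also computed after thinning to 5800 UMIs, which left out 6 RC and 1 SAA members. The intervals' routine was tested on simulated sums with counting error alone, which cannot show how the intervals hold where cells vary.

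Named genes were the 12 rule genes, the 15 highest and 15 lowest for SAA/RC and the 15 highest and 10 lowest for members/C cells (minimum 100 UMIs), and in each of 35 gene lists the 4 genes of highest UMI sum. Other genes were named after their values were seen. List genes needed 20 UMIs over the groups compared. The members and the lists were chosen with earlier results of these data known. 1 gene within the rule for named genes is not reported here.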

Additional observations from a re-analysis of the deposited data

How the results depend on the processing

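With 1 library per condition, no spread between mice could be measured, and library and condition cannot be told apart. No paired analysis was possible because no result comes from a test. M-rich members lie near the rule's limits, and 6 and 12 cells give them. Leaving out called doublets, an E of at least 10 and equal weights of cells moved none of the shares outside its interval and none of the counts below by over 1.5 times.

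Members were 11.7% of RC cells (49 of 419) and 4.52% of SAA cells (26 of 575) with at least 1500 genes and at most 10% mitochondrial UMIs. They were 17.2% (44 of 256) and 3.50% (15 of 429) where the rule was applied to thinned cells, which leaves out shallow cells. Both settings left out more RC than SAA cells. For the gene counts and ratios of the thinned setting, thinning only chose the cells, and their unthinned UMIs were summed. Without M-rich members the SAA share was 1.92%. Of genes at least 2-fold higher in SAA members, 82 of 1386 became 53 of 1168 with an E of at least 40 and 43 of 1098 in thinned cells. They were 175 of 2827 with a minimum of 50 UMIs and 36 of 986 without M-rich members. Over the same genes, the 51 lower became 31 in thinned cells, 112 with 50 UMIs and 23 without M-rich members. GTPases higher in SAA were 13 of 13, and 7 of 7 with 50 UMIs and 6 of 6 without M-rich members. Type I genes were 17 of 22, and 10 of 15 with an E of at least 40, 11 of 13 in thinned cells, 6 of 8 with 50 UMIs and 8 of 12 without M-rich members. Over all genes with at least 20 UMIs, 8.33% were higher in all members and 6.53% in M-poor members. At 50 UMIs the all-gene count is the 175 of 2827 above. For an E of at least 40 and for thinned cells, no all-gene share was computed at 20 UMIs. Genes near 0 in RC enter the list counts only through SAA. Fewer cells or genes entered each of these settings, except the minimum of 50 UMIs over all genes, where more did. The Gbp2 share of SAA members was 88.5% unthinned and 68.0% thinned.

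Against C cells the scaling decided the balance. In RC, 454 higher and 147 lower of 2852 genes became 139 and 357 with TMM and 243 and 247 with the median gene ratio set to 1. They were 261 and 233 with the 50 top genes left out of totals. A minimum of 50 UMIs changes the number of genes and not the scaling, and gave 823 and 247 of 4822. In SAA, 553 higher and 298 lower of 3768 genes became 193 and 639 with TMM, and 950 and 478 of 5681 genes with 50 UMIs. The higher and lower SAA genes were 319 and 425 with the median set to 1 and 327 and 420 without the top genes. In cells chosen after thinning they were 340 and 251. With cells chosen after thinning, the log2 SAA/RC ratio of their unthinned UMIs turned negative for Klf4 (-1.43), Irf5 (-1.52), Psap (-0.47) and Ms4a6c (-0.48). Without M-rich members it did so for Psap (-1.30). Without M-rich members the log2 ratio to SAA C cells was -0.91 for Lgals1 and, for Ms4a6c, a gene of M that this removal lowers, -1.55. Ccr2, also a gene of M, and Crip1 then had 0 UMIs, and -0.32 and -2.94 are their bounds at the floor of 3 UMIs. The log2 ratio of Crip1 to RC C cells was -0.36. The cause of these changes of sign was not tested. The leaving out of M-rich members was added after seeing the data.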
